A study of Homo sapiens with 8 samples.

Results

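Leukocytes leave the blood by binding to a series of proteins on the endothelial surface, and 10 genes for such proteins are described here: SELE, SELP, ICAM1, ICAM2, VCAM1, ALCAM, MCAM, PECAM1, CD99 and ESAM. They were taken by gene symbol from a table of 23346 genes, and all 10 symbols were found. The choice used names only and no measured value. The data are poly(A) RNA sequencing libraries of hCMEC/D3, a line made by immortalising human brain microvessel endothelium, which stands in for the blood-brain barrier in culture. There were 8 replicate libraries of the line in 1 group, and the labels name no cytokine, flow, added leukocytes or other condition. The labels do not say whether the replicates were separate cultures, so every p-value below measures only the spread between these libraries, which may be technical. Total counts per library ranged from 69388544 to 90205244.

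Passage of a leukocyte across the vessel wall runs through ordered steps. Selectins on the endothelium catch the cell by its surface glycans and let it roll, ICAM and VCAM proteins then hold it by binding its activated integrins, and junctional proteins such as PECAM1 and CD99 guide it between endothelial cells. In resting endothelium of the brain the selectins and VCAM1 are kept low, and inflammatory cytokines such as TNF and IL-1 raise SELE, VCAM1 and ICAM1 through the transcription factor NF-kappaB. Other members, such as ICAM2 and PECAM1, are carried by resting endothelium.

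The DNA upstream of the cytokine-inducible members SELE, VCAM1 and ICAM1 held 2 short motifs that were not found together upstream of the other members with a sequence. The RefSeq promoter table (GRCh38.p14) had entries for 7 of the 10 members, SELE, SELP, ICAM1, VCAM1, ALCAM, MCAM and CD99, and each stretch of 250 bases before the annotated start matched GRCh37 exactly at 1 place. The 3 that held both motifs searched are shown with CD99, a member that held neither. Capitals mark matches to GGNNNTTCC, a relaxed form of the NF-kappaB site, and to TATAAA, the core of the TATA box, on either strand. Positions are counted back from the annotated start, and the intervals are in GRCh37: chr1:169703221-169703470 on the minus strand for SELE, chr19:10381546-10381795 on the plus strand for ICAM1, chr1:101185048-101185297 on the plus strand for VCAM1 and chrX:2609086-2609335 on the plus strand for CD99.
SELE: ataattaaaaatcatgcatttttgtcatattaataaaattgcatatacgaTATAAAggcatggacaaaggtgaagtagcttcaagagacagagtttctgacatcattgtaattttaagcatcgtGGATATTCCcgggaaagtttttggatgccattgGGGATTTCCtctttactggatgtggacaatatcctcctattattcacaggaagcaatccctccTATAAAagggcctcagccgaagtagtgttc
ICAM1: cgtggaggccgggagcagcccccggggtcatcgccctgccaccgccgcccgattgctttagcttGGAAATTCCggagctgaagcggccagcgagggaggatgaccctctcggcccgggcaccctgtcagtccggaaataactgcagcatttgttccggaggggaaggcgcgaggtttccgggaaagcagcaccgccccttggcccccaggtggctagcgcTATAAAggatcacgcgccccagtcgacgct
VCAM1: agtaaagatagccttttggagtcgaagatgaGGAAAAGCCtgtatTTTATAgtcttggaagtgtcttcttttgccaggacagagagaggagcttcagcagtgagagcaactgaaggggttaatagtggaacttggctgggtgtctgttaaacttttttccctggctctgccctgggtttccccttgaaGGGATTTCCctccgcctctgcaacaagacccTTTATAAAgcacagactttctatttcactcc
CD99: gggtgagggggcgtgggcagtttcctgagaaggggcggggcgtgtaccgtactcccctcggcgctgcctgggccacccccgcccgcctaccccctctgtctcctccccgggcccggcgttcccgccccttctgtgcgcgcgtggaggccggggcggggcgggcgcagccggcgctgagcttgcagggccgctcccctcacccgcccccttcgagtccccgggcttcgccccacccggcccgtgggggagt

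SELE held GGNNNTTCC at -126 to -118 and at -93 to -85, with TATAAA at -30 to -25 and a second match at -200 to -195. VCAM1 held GGNNNTTCC at -62 to -54 on the gene's strand and at -219 to -211 on the other, and TATAAA at -29 to -24, which overlaps a reverse-strand match at -31 to -26. A further reverse-strand TATAAA in VCAM1 lay at -205 to -200. In ICAM1 a single GGNNNTTCC stretch at -186 to -178 read as a match on both strands, and TATAAA lay at -30 to -25. All 3 therefore had a TATAAA between 24 and 31 bases before the start. SELP, ALCAM, MCAM and CD99 held neither motif in these 250 bases. Among 35116 promoters of the table with the same window, 17.1% held GGNNNTTCC, 10.7% held TATAAA and 1.28% held both. The motif form was picked after these promoters had been read, so the count of 3 of 7 is a description, and a match shows letters, not binding. The G and C share of the windows was 37.2% for SELE, 46.0% for VCAM1, 48.4% for SELP, 66.0% for ICAM1, 68.8% for ALCAM, 78.0% for CD99 and 79.6% for MCAM.

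**Figure D1:**
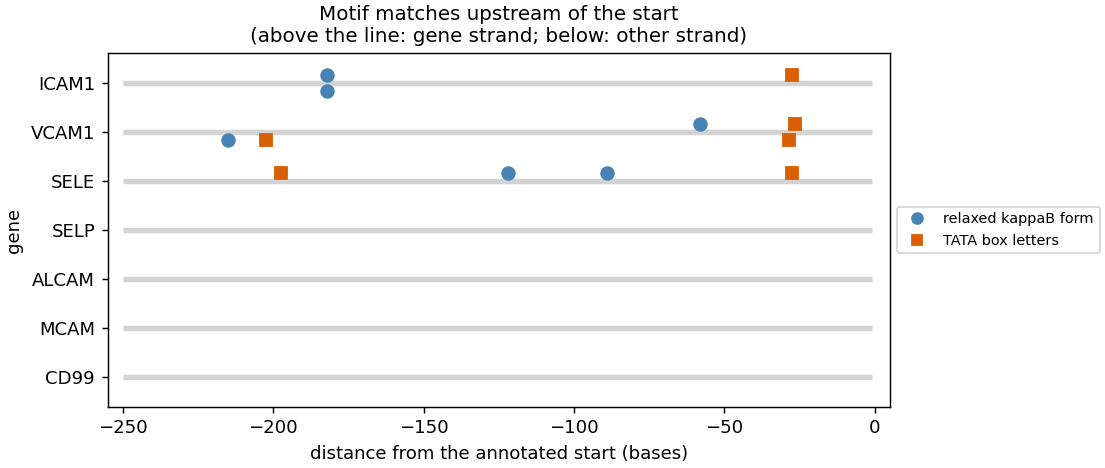
Matches to GGNNNTTCC and TATAAA in the 250 bases before the annotated start of 7 genes, with distance from the start in bases on the x axis and genes on the y axis; marks above a line are on the gene's strand and marks below on the other. SELE, VCAM1 and ICAM1 carry both motifs, with a TATAAA 24 to 31 bases before the start, and the other lines are empty.

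The libraries were not alike, and this touches most members. The share of counts in 77 cytosolic ribosomal protein genes was 7.47% in replicate 8, 6.14% in replicate 2 and 5.69% in replicate 7, against 3.86% to 4.39% in the other 5. Counts of long transcripts were low against the gene means in the same 3 libraries, with a slope of -0.34 log2 units per doubling of length in replicate 8, -0.23 in replicate 2 and -0.11 in replicate 7, against 0.09 to 0.15 in the others. The first principal component held 83.8% of the variance. Replicates 2 and 8 lay at the same end of it, at 40.8 and 58.3, against -25.9 to 12.6 in the other libraries. The tests on the members, the gene lists and the likeness between genes are therefore also given without replicates 2 and 8. This step was chosen after the data had been seen. It keeps replicate 7, so slopes on the share over the 6 libraries left depend largely on replicate 7 against the others. All 10 endothelial markers checked, CDH5 and VWF among them, were detected in every library. Leukocyte markers were low, with 2 of 8 detected and a summed level of 4.54 to 8.27 CPM (counts scaled to a common library size). The pan-leukocyte gene PTPRC was at 0.426 ± 0.160 CPM (SD, n = 8). LCP1 had the highest mean of the 8, at 2.69 ± 1.24 CPM (SD, n = 8). It was not among those detected, with 0.568 CPM in its lowest library. Of the mural cell markers 5 of 8 were detected, with a summed level of 47.3 to 74.2 CPM, and of the astrocyte and neuron markers 1 of 8, with AQP4 at 0 in all libraries. In RNA from whole cultures, fewer cells that express a gene and less RNA per cell cannot be told apart.

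A gene was called detected where it reached 1 CPM, on library sizes scaled by the TMM method, in all 8 libraries. By this rule 51.3% of all listed genes were detected, and 9 of the 10 members were, all but SELP. ALCAM, MCAM and the junctional members were abundant, the firm-adhesion members lay lower, SELE was lower still, and SELP was at the limit of counting.

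The selectins showed a detected SELE and a SELP at the limit of counting. SELE encodes E-selectin, made by endothelium after cytokine exposure, and lies at chromosome 1, 169691781 to 169703220 (GRCh37, minus strand, 14 exons in the canonical transcript). Its level was lowest at 1.71 CPM in replicate 5, had a median of 2.68 and was highest at 4.62 in replicate 6, with a mean of 2.74 ± 0.940 CPM (SD, n = 8). Replicate 6 stood above the next library, replicate 7 at 3.24 CPM. SELE was more abundant than only 6.24% of detected genes.

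SELP encodes P-selectin, which endothelium and platelets store in granules and bring to the surface within minutes, and it neighbours SELE at chromosome 1, 169558088 to 169599377 (minus strand, 17 exons). Because no odd count occurred in the deposited table, a read pair was taken as 2 counts. SELP had 10 counts in replicates 1 and 8, 4 in replicates 3 and 7, 2 in replicates 2 and 4, and 0 in replicates 5 and 6. A count of 0 allows up to 3 read pairs, which is 0.0777 CPM in replicate 5 and 0.0840 in replicate 6. The values in replicates 1 and 8 were 0.147 and 0.118 CPM, and no test between single libraries was made. Over all libraries SELE had 845 read pairs and SELP 16. Per kilobase of transcript that was a ratio of 43.0, with an exact 95% interval of 26.3 to 75.6 that covers counting error only.

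**Figure D2:**
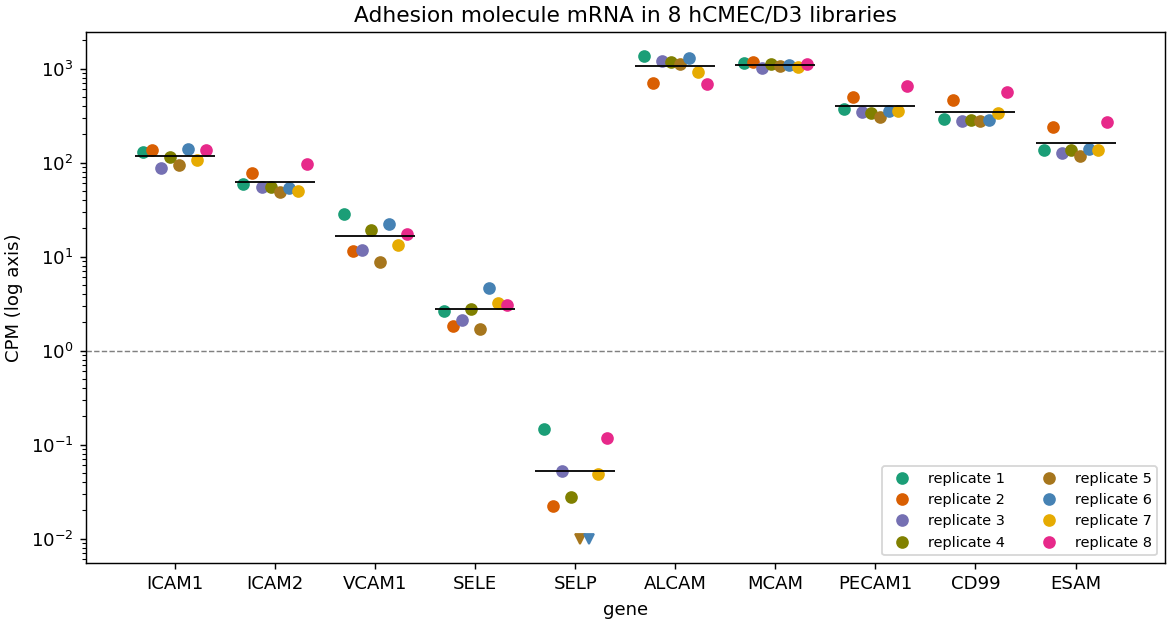
Level of each of the 10 genes in CPM on a log axis, with a point for each of the 8 libraries and a black line at the mean; the dashed line marks 1 CPM, and downward triangles at 0.01 stand for the counts of 0 in SELP. ALCAM and MCAM are the highest, with means of 1058 and 1096 CPM, SELE between 1.71 and 4.62, and all SELP values lie below the dashed line.

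Among the members that hold a leukocyte firmly, VCAM1 was the most uneven of the detected members on either scale, and ICAM1 lay above 82.8% of detected genes by CPM. ICAM1, the ligand of the leukocyte integrins LFA-1 and Mac-1, lies at chromosome 19, 10381517 to 10397291 (plus strand, 7 exons). Its level ran from 88.4 CPM in replicate 3 through a median of 122 to 138 in replicate 6, with a mean of 118 ± 19.8 (SD, n = 8). Replicates 3 and 5 were the low libraries, at 88.4 and 94.3 CPM, and replicates 1, 2, 6 and 8 were all above 130 CPM.

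ICAM2, a smaller LFA-1 ligand of resting endothelium, lies at chromosome 17, 62079955 to 62097994 (minus strand, 5 exons). The table lists C17orf72 and the MIR4315-1 and MIR4315-2 entries over the same interval, and the strand setting of the counting is not given in the sources used here, so shared reads are uncertain. ICAM2 was lowest at 48.2 CPM in replicate 5, had a median of 55.1 and was highest at 97.2 in replicate 8. Replicate 2, at 76.8 CPM, and replicate 8 stood above the other 6 libraries, whose highest was 58.9. The mean of 61.8 ± 16.8 CPM (SD, n = 8) became 53.4 ± 3.94 (SD, n = 6) without replicates 2 and 8.

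VCAM1, the ligand of the integrin VLA-4 on lymphocytes and monocytes, lies at chromosome 1, 101185196 to 101204601 (plus strand, 9 exons). Its level in replicates 1 to 8 was 28.1, 11.5, 11.6, 19.3, 8.66, 22.3, 13.4 and 17.3 CPM, with a mean of 16.5 ± 6.53 (SD, n = 8). The highest library, replicate 1, was 3.25 times the lowest, replicate 5. The libraries with a ribosomal protein share of 3.86% to 4.39% held both high and low VCAM1 levels. Its 3 highest libraries, replicates 1, 4 and 6, and the low replicates 3 and 5 were all among them. Replicate 2, also low at 11.5 CPM, had a share of 6.14%. Replicates 2, 7 and 8, which had the higher shares, all lay below replicates 1, 4 and 6.

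ALCAM and MCAM were the most abundant members by CPM. ALCAM, a receptor that binds itself and the T cell protein CD6, lies at chromosome 3, 105085557 to 105295757 (plus strand, 16 exons). It ran from 690 CPM in replicate 8 and 701 in replicate 2 to 1348 in replicate 1, with a median of 1155 and a mean of 1058 ± 257 (SD, n = 8). Replicates 2, 7 and 8 were its 3 lowest libraries. Without replicates 2 and 8 the mean was 1179 ± 150 CPM (SD, n = 6).

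MCAM, an adhesion receptor at endothelial contacts, lies at chromosome 11, 119179234 to 119187840 (minus strand, 16 exons). In contrast to ALCAM its values stayed between 1018 and 1182 CPM, with a median of 1101. The coefficient of variation was 5.21% for MCAM and 24.3% for ALCAM.

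The 3 junctional members shared a pattern in CPM in which replicates 8 and 2 were the highest libraries. PECAM1, which binds itself across the contact between leukocyte and endothelium, was listed at chromosome 17, 62396777 to 62407083. That span of 10307 bases is far shorter than the 71446 bases of the RefSeq gene in GRCh38, and the table lists the MIR4315-1 and MIR4315-2 entries over it, so the PECAM1 counts may cover part of the gene only. PECAM1 ran from 303 CPM in replicate 5 through a median of 353 to 656 in replicate 8, with replicate 2 at 503. The other 6 libraries did not exceed 368 CPM.

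CD99, which acts after PECAM1 in the passage of leukocytes, lies at chromosome X, 2609228 to 2659350 (plus strand, 10 exons). It is in the pseudoautosomal region that chromosomes X and Y share, and how reads that match both copies were counted is not given in the sources used here. CD99 was 557 CPM in replicate 8, 460 in replicate 2 and 340 in replicate 7, and the other 5 libraries lay between 275 and 288. ESAM, a protein of endothelial tight junctions, lies at chromosome 11, 124623019 to 124632223 (minus strand, 7 exons). ESAM was 268 CPM in replicate 8 and 237 in replicate 2, and the other 6 libraries lay between 118 and 140. Replicate 7 stood above those 5 libraries for CD99, but for PECAM1 and ESAM it lay within the range of the others. Without replicates 2 and 8 the means were 343 ± 22.1 CPM for PECAM1, 291 ± 24.3 for CD99 and 132 ± 8.45 for ESAM (SD, n = 6), against 402 ± 118, 345 ± 106 and 162 ± 56.9 over all libraries (SD, n = 8).

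The library at the edge of the group differed between the scales. By CPM, replicate 5 was the lowest library for 6 of the 9 detected members, ICAM2, VCAM1, SELE, PECAM1, CD99 and ESAM, and replicate 8 was the highest for 4, ICAM2, PECAM1, CD99 and ESAM. In the authors' CQN values, which are log2 levels adjusted in each library for transcript length and GC content, replicate 5 was lowest for 3 members, VCAM1, SELE and PECAM1, and replicate 7 for another 3, ICAM2, CD99 and ESAM. In the same values replicate 8 was highest for SELE, PECAM1 and CD99.

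Levels of different genes can be compared only per transcript length, here as RPKM on the canonical transcript or as CQN values. PECAM1 had no transcript under its symbol in the GRCh37 annotation used and is ordered by CQN only. By RPKM the order was MCAM at 329 ± 17.2, CD99 at 306 ± 93.9, ALCAM at 225 ± 54.7, ESAM at 88.5 ± 31.1, ICAM2 at 54.5 ± 14.8, ICAM1 at 39.8 ± 6.68, VCAM1 at 5.33 ± 2.11, SELE at 0.707 ± 0.243 and SELP at 0.0165 ± 0.0170 (SD, n = 8). Neighbours below ALCAM kept their order in 8 of 8 libraries. CD99 did not separate from either of its neighbours beyond their spread: MCAM was above CD99 in 6 of 8 libraries and CD99 above ALCAM in 4 of 8. On the CQN scale the order was MCAM at 10.62 ± 0.16, ALCAM at 9.88 ± 0.05, CD99 at 9.45 ± 0.10, PECAM1 at 9.01 ± 0.41, ESAM at 8.37 ± 0.21, ICAM1 at 7.52 ± 0.23, ICAM2 at 7.00 ± 0.21, VCAM1 at 4.53 ± 0.54 and SELE at 1.82 ± 0.51 (SD, n = 8). SELP was given no CQN value.

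**Figure D3:**
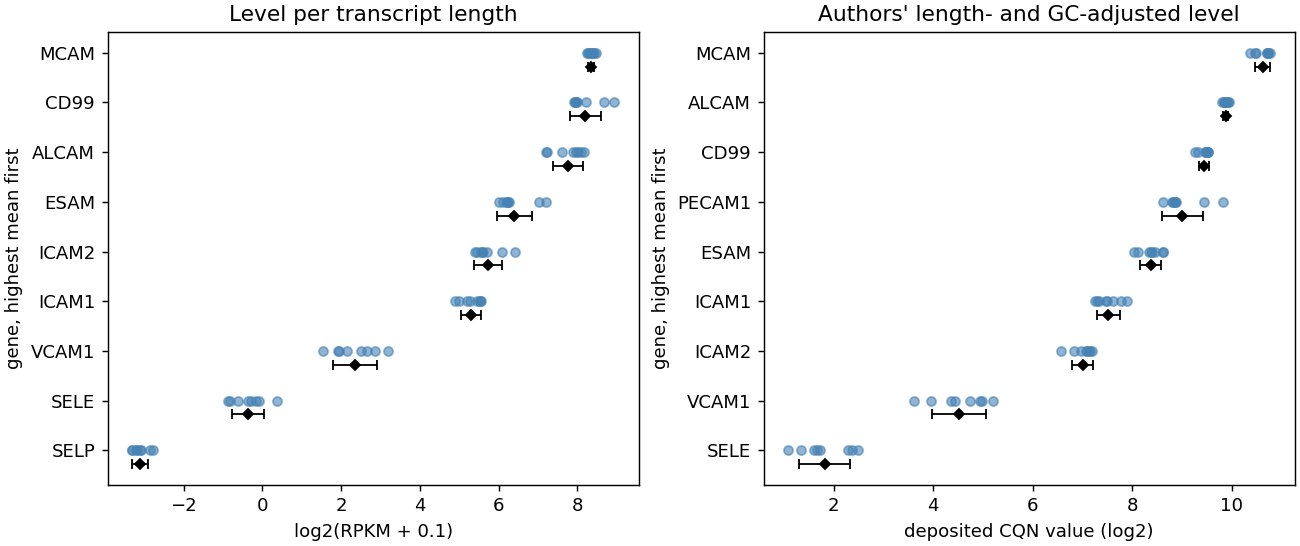
Level per transcript length as log2(RPKM + 0.1) on the left and the deposited CQN value in log2 units on the right, with genes on the y axis from the highest mean down and a point for each of 8 libraries. ICAM1 and ICAM2 change places between the panels, as do ALCAM and CD99, while VCAM1 and SELE stay at the lower end in both.

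Members of the same step were compared pairwise within each library, with a two-sided exact permutation test that flips the signs of the differences and Benjamini-Hochberg adjustment over 6 pairs. ICAM1 exceeded VCAM1 by 2.95 ± 0.44 log2 RPKM units (SD, 8 of 8 libraries, exact p = 0.00781, adjusted 0.00938), and the excess was 2.99 in CQN values. SELE exceeded SELP by 2.75 ± 0.45 log2 units in 8 of 8 libraries (exact p = 0.00781, adjusted 0.00938), a size that rests on the pseudocount of 0.1 because SELP was near 0. With a pseudocount of 1 it was 0.74, and with 0.01 it was 4.95. ALCAM lay below MCAM by RPKM, with a log2 ratio of -0.59 ± 0.42 (8 of 8 libraries, exact p = 0.00781, adjusted 0.00938). The size fell to -0.04 with the longest annotated transcripts, which no longer passed the test, and was -0.74 in CQN values.

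The direction of the ICAM1 and ICAM2 comparison differed between the scales. By RPKM ICAM1 was below ICAM2, with a log2 ratio of -0.43 ± 0.28 in 8 of 8 libraries (exact p = 0.00781, adjusted 0.00938), whereas in CQN values it was above by 0.51. The canonical transcripts are 2967 bases for ICAM1 and 1135 for ICAM2. No order of these 2 genes held across the scales, and the cause was not tested. In CQN values CD99 exceeded PECAM1 by 0.44 ± 0.37 in 7 of 8 libraries (exact p = 0.0234, adjusted 0.0234), and replicate 8 was the exception. ESAM lay below PECAM1 by CQN with a difference of -0.64 ± 0.28 in 8 of 8 libraries (exact p = 0.00781, adjusted 0.00938). Without replicates 2 and 8 these differences were 0.62 and -0.51.

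The spread of a member between replicates depended on the scale for some genes and not for others. The SD of log2 CPM was 0.38 for ALCAM and 0.39 for CD99, and in CQN values it was 0.05 and 0.10. For VCAM1 it was 0.56 in log2 CPM and 0.54 in CQN, for SELE 0.46 and 0.51, and for PECAM1 0.37 and 0.41. MCAM went the other way, from 0.08 to 0.16. The median over all 11980 detected genes was 0.28 in log2 CPM and 0.16 in CQN.

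**Figure D4:**
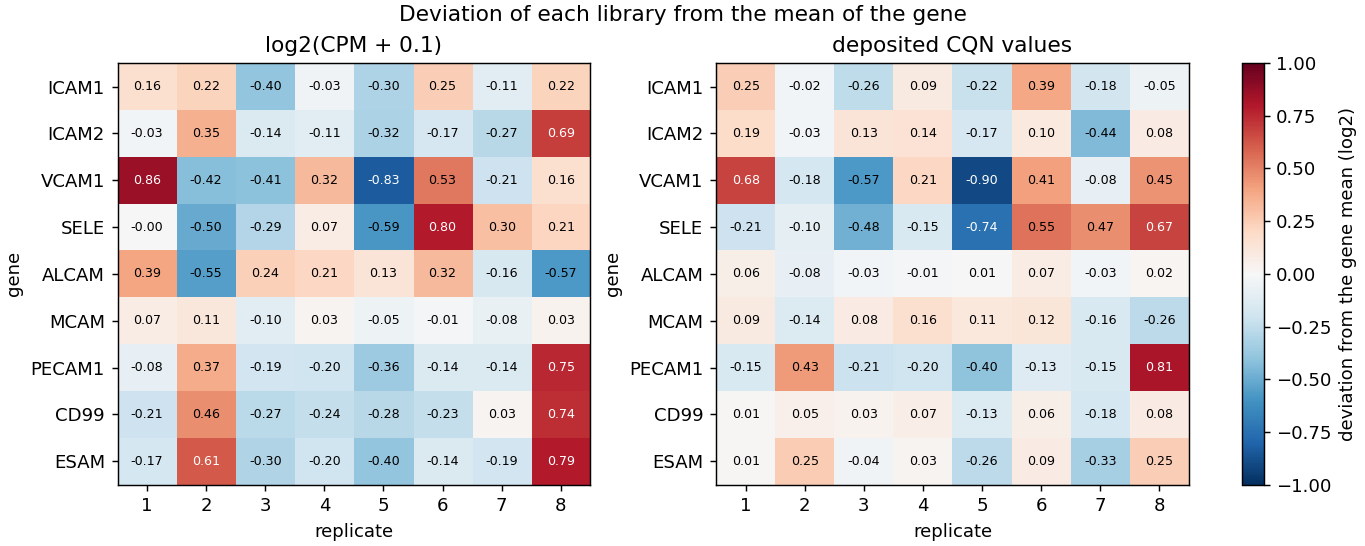
Deviation of each library from the gene's mean in log2 units, as colour, for the 9 detected genes (y axis) and 8 replicates (x axis), by log2 CPM and by CQN value. Replicates 2 and 8 stand out by CPM for ALCAM, CD99 and ESAM and less so by CQN, while VCAM1, SELE and PECAM1 keep strong colours in both panels.

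Whether a member spread more than genes of like abundance was tested in edgeR by the goodness of fit of each gene to the dispersion trend, adjusted by Benjamini-Hochberg over all detected genes. With no covariate 0 of 9 members passed, against 4.83% of all detected genes. At an unadjusted p under 0.05 there was 1, VCAM1 (edgeR adjusted p = 0.199). With the fitted trend of DESeq2 in its place 4 passed, VCAM1, SELE, CD99 and ESAM, against 24.0% of all genes. Once the ribosomal protein share of the library was in the edgeR model, 2 passed, VCAM1 (adjusted p = 2.77e-10) and SELE (adjusted p = 0.00260), against 4.17% of all genes. ICAM1 had an adjusted p of 0.0540 in that edgeR model. Without replicates 2 and 8 and with no covariate, the same 2 members passed in edgeR, VCAM1 with an adjusted p of 7.21e-06 and SELE with 0.0291, against 3.01% of all genes. Leaving out replicate 8 alone let VCAM1 pass (edgeR, adjusted p = 0.0106).

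On counts of all 8 libraries, the members called for a slope on the ribosomal protein share were PECAM1, CD99, ESAM, ICAM2 and ALCAM. PECAM1, ESAM and ICAM2 were not called on counts without replicates 2 and 8. The slope of each gene on the share, per SD of the share between libraries (1.37 percentage points), was tested with edgeR's quasi-likelihood test over all detected genes. Of the 9 members 4 rose and 1 fell, against 36.7% of all detected genes rising and 35.1% falling, so a call was common in the table as a whole. CD99 rose by 0.36 log2 units (SE 0.04, adjusted p = 1.30e-05), ESAM by 0.37 (SE 0.07, adjusted p = 6.76e-04), PECAM1 by 0.30 (SE 0.06, adjusted p = 6.30e-04) and ICAM2 by 0.26 (SE 0.06, adjusted p = 0.00424), all by edgeR. ALCAM fell by 0.39 log2 units (SE 0.04, edgeR adjusted p = 1.28e-05). The slopes that did not pass were 0.07 for ICAM1, -0.18 for VCAM1, -0.05 for SELE and 0.00 for MCAM, with edgeR adjusted p-values of 0.433, 0.348, 0.768 and 0.983. ALCAM has the longest canonical transcript of the members at 4701 bases, and CD99, ICAM2 and ESAM have the shortest at 1129, 1135 and 1829. The share and the length slope of a library had a Pearson r of -0.99 over the 8 libraries. With the length slope in place of the share, edgeR on counts called the same 5 members in the same directions. The 2 measures cannot be told apart in these libraries, and the part of length in these slopes was not tested separately.

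In the authors' CQN values most of these slopes were near 0. By limma on those values 1 of the 9 rose, PECAM1 by 0.35 log2 units (SE 0.07, adjusted p = 0.00237), and 1 fell, MCAM by 0.15 (SE 0.02, adjusted p = 6.15e-04), against 21.7% of all genes rising and 18.5% falling. ALCAM had a CQN slope of -0.02, CD99 0.00 and ESAM 0.08, none of which passed. PECAM1 was thus the only member called in the same direction on both scales. That call rested on replicates 2 and 8: without them the PECAM1 slope was -0.02 on counts (edgeR adjusted p = 0.840) and 0.00 in CQN values (limma adjusted p = 0.997). Without replicate 8 alone the edgeR slope on counts was 0.20 for PECAM1 (adjusted p = 0.0647) and 0.13 for ICAM2 (adjusted p = 0.240).

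With replicates 2 and 8 left out, 6 libraries remained. Among them replicate 7 had a ribosomal protein share of 5.69% and the others shares of 3.86% to 4.39%. Each slope over these libraries therefore depends largely on replicate 7 against the others. In CQN values replicate 7 was the lowest library for ICAM2, CD99 and ESAM. By edgeR on counts CD99 rose by 0.18 log2 units (adjusted p = 0.0139) and ALCAM fell by 0.36 (adjusted p = 7.63e-04), against 27.2% of all genes rising and 27.0% falling. These 2 members were called on counts in the same direction with and without the 2 libraries. By limma on CQN values of the 6 libraries 4 fell, ICAM2 by 0.45 (adjusted p = 0.00189), ESAM by 0.28 (adjusted p = 0.0181), MCAM by 0.20 (adjusted p = 0.0171) and CD99 by 0.17 (adjusted p = 0.0339), against 11.1% of all genes falling. None of the 9 rose there at an adjusted p under 0.05 by limma, against 12.1% of all genes. At an unadjusted p under 0.05 none rose either. CD99 was thus called in opposite directions on the 2 scales in these 6 libraries. Of the fits with 8 and with 6 libraries, the ICAM2 slope was above 0 only on counts of all 8, and the ESAM slope was above 0 on both scales with 8 libraries and below 0 on both with 6.

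**Figure D5:**
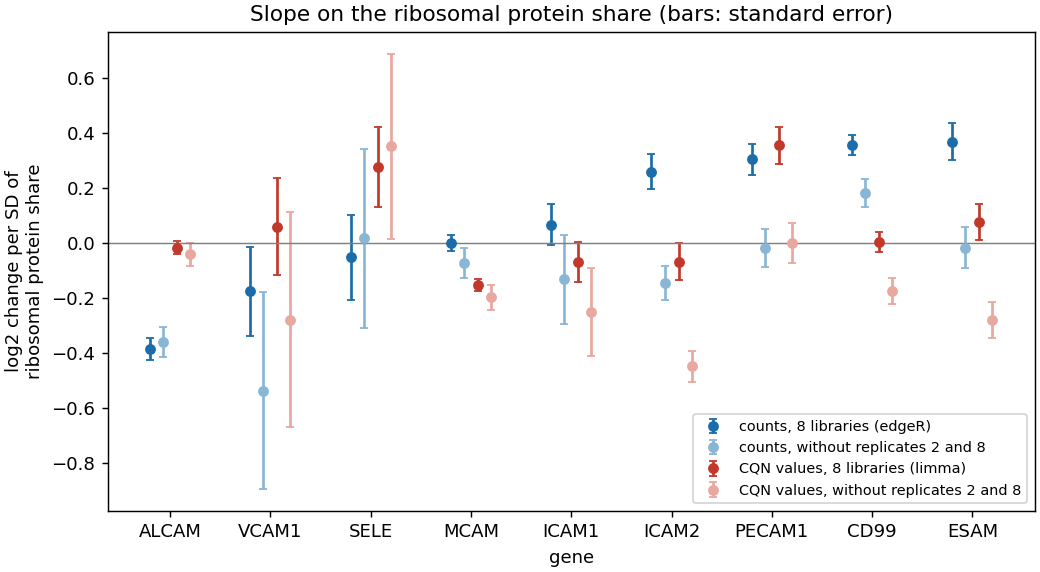
Slope of each detected gene on the ribosomal protein share in log2 units per SD of the share (y axis) with its standard error as a bar. Slopes are by counts and by CQN value, each with all 8 libraries and without replicates 2 and 8. With all 8, on counts CD99, ESAM, PECAM1 and ICAM2 lie above 0 and ALCAM below. By CQN with all 8, PECAM1 stays above 0, at 0.35, and MCAM lies at -0.15. Without replicates 2 and 8, ESAM, PECAM1 and ICAM2 lie below 0 on counts, and PECAM1 lies at -4.31e-04 by CQN.

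Genes whose CQN values were most like those of a member over the 8 libraries are given as a description. The Pearson r was taken over 8 points against 11971 other detected genes, and the points share libraries that differ in depth and composition. ESAM was closest to CLDN5 (r = 0.99), the main claudin of brain endothelial tight junctions, followed by GIMAP8 and PAQR8. PECAM1 was closest to MTUS1 (r = 0.99), LOC100506314 and VEGFB, and 957 genes had an r over 0.9 with it, against 821 for MCAM and 3 for ALCAM. ICAM1 was closest to NUDT14 (r = 0.97), FAM214A and AKR1B1, and VCAM1 to DDR1 (r = 0.96), LOC90246 and PCTP. SELE was closest to NDUFV2 (r = 0.97), EPHB4 and C6orf115, ICAM2 to UBXN7 (r = 0.99), C12orf35 and BCL6B, and CD99 to BACE2 (r = 0.99), ACSL5 and TSC22D4. MCAM was closest to FIGNL1 (r = 0.99), CASC5 and MOCOS, and ALCAM to FRYL (r = 0.92), IKZF2 and RIPK3. ICAM1 and VCAM1 had 17 genes each with an r over 0.9, and SELE had 11. Without replicates 2 and 8 the counts were 253 for ICAM1, 298 for VCAM1 and 72 for SELE. They were then 104 for PECAM1, 645 for MCAM and 59 for ALCAM, so these counts depended on the libraries used. Over the 6 libraries other than replicates 2 and 8, NDUFV2 was still first for SELE and BACE2 for CD99 with r = 0.997 and 0.996, and other genes took the first place for the remaining members. The r of PECAM1 with MTUS1 was 0.85 over those 6 libraries and that of ESAM with CLDN5 was 0.98, in place 67 among all genes compared.

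The wider adhesion repertoire was largely present. Of 25 other adhesion and passage genes 21 were detected, and ICAM4, JAM2, MADCAM1 and AOC3 were not. MADCAM1, the gut addressin, was at 0.116 ± 0.0650 CPM and JAM2, a junctional partner of JAM3, at 0.0883 ± 0.0613 (SD, n = 8). The 3 most abundant were the tetraspanin CD9 at 1117 ± 108 CPM, BSG, a glycoprotein of barrier endothelium also called CD147, at 680 ± 197, and the endothelial cadherin CDH5 at 649 ± 152 (SD, n = 8). On counts 8 of the 21 rose with the ribosomal protein share by edgeR and 7 fell. By limma on CQN values 4 rose and 5 fell. Over all detected genes 36.7% rose and 35.1% fell on counts, and 21.7% and 18.5% in CQN values, and these shares are the background of the lists that follow too. With replicates 2 and 8 left out, 5 of the 21 rose and 5 fell on counts, where 27.2% and 27.0% of all genes did.

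The partners on the leukocyte side were mostly not detected. Of 12 counter-receptor genes 2 were detected: ITGB1, the beta-1 integrin chain that most adherent cells make, at 1515 ± 350 CPM, and ITGB2, the beta-2 chain of LFA-1 and Mac-1, at 2.11 ± 0.356 (SD, n = 8). The alpha chains ITGAL, ITGAM and ITGA4, the selectin ligand SELPLG and the ALCAM ligand CD6 were not detected.

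Inside the endothelial cell, adhesion molecules are tied to actin through linker proteins such as the ezrin family and the alpha-actinins. Of 14 such anchors and signalling partners 13 were detected, among them FLNA at 2364 ± 258 CPM and MSN at 1549 ± 83.8 (SD, n = 8), and ARHGEF26, an exchange factor that acts below ICAM1, was not detected at 0.190 ± 0.0954. Of the 13, 1 rose with the share by edgeR on counts, against 36.7% of all genes, and 3 fell, against 35.1%. In CQN values 4 fell by limma, against 18.5%. The count depended on the libraries: without replicates 2 and 8, 5 rose and 4 fell on counts, against 27.2% and 27.0% of all genes.

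Of 11 genes for cytokine receptors and signalling 10 were detected, all but IL1R1. These genes do not cover the whole route by which cytokines raise SELE, VCAM1 and ICAM1. The TNF receptor TNFRSF1A was at 170 ± 31.5 CPM, the interferon-gamma receptor chain IFNGR1 at 166 ± 19.7 and the NF-kappaB inhibitor NFKBIA at 129 ± 28.1, while the IL-1 receptor IL1R1 was at 1.02 ± 0.193 CPM (SD, n = 8) and fell below 1 CPM in some libraries. With the ribosomal protein share in the model, NFKBIA was the 1 gene of the list above the variation trend (edgeR adjusted p = 0.00379). NFKBIA did not pass without replicates 2 and 8 and with no covariate (edgeR adjusted p = 0.234). On counts 4 of the 10 rose with the share by edgeR, against 36.7% of all genes, and 3 fell, against 35.1%, and 2 fell by limma on CQN values, against 18.5%. In the other 6 libraries 3 of the 10 were called on counts, all falling, against 27.0% of all genes.

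Membrane proteases cut several of these adhesion molecules from the cell surface, ADAM10 and ADAM17 among them. All 5 protease genes checked were detected, led by ADAM15 at 342 ± 50.7 CPM, MMP14 at 299 ± 67.7 and ADAM10 at 143 ± 57.3 (SD, n = 8). ADAM10 fell by 0.75 log2 units per SD of the share on counts (SE 0.04, edgeR adjusted p = 6.68e-07) and by 0.52 in CQN values (limma adjusted p = 1.19e-06). The ADAM10 slope without replicates 2 and 8 was -0.62 on counts (SE 0.04, edgeR adjusted p = 3.50e-05) and -0.44 in CQN values (limma adjusted p = 7.06e-04). Both of these slopes depend largely on replicate 7 against the other libraries kept. On counts 2 of the 5 rose and 2 fell by edgeR, with and without replicates 2 and 8. Of all genes 36.7% rose and 35.1% fell with all libraries, and 27.2% and 27.0% without those 2. In CQN values 1 rose and 4 fell by limma, against 21.7% and 18.5%. Without replicates 2 and 8 there were 2 calls in CQN values, both falling, against 12.1% of all genes rising and 11.1% falling.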

How the data were processed

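The labels give 1 group of 8 hCMEC/D3 replicates, prepared from polyadenylated RNA with an Illumina TruSeq kit per the labels' protocols. Per the submitters' processing notes, CASAVA 1.9, TopHat2 2.0.6, HTSeq and the hg19 build were used. The strand setting, the gene annotation and the parameters of conditional quantile normalisation (CQN) are not given in the sources used here. The authors deposited raw counts per gene, all of them even, and, per the file headers, CQN-normalised values, which were read as log2 from their range. They gave CQN values for 13962 of 23346 genes, and 0 per-sample columns were left unmatched. Positions are printed 1-based, and exons and lengths came from GENCODE 44 lifted to GRCh37.

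From the counts, TMM-scaled CPM, RPKM on the canonical transcript, goodness-of-fit and quasi-likelihood tests were computed with edgeR 4.0.16 (R 4.3.3). Slopes on CQN values came from limma 3.58.1, an alternative from DESeq2 1.42.0 and the exact counting interval from scipy 1.17.1. The exact permutation tests were computed directly over every sign pattern. The fits covered all 11980 detected genes, with calls at a Benjamini-Hochberg adjusted p under 0.05. The edgeR slope test and the edgeR goodness-of-fit test with no covariate were tried on simulated data. Fewer genes followed the ribosomal protein share there than in these libraries, and the limma and DESeq2 fits were not simulated. Counting intervals cover counting error only. Named genes were the 10 members, the 3 most abundant detected genes of each list with its undetected genes where these were 5 or fewer, and the 3 genes most like each member; 1 gene that this rule names is not reported here. The counter-receptors and leukocyte, mural, astrocyte and neuron genes given beyond that rule were chosen after their values were seen. The members, lists and tests were chosen with earlier results of these data known.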

Additional observations from a re-analysis of the deposited data

How the results depend on the processing

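SELP had the fewest read pairs of the members, 16 in all, and the effect of depth was not tested. The count of members detected, 9, was the same under 5 other filters and scalings, and was 8 at a minimum of 5 CPM, which SELE did not reach. The count of members above the variation trend, 0 in the report, was 4 with the DESeq2 trend and 2 with the ribosomal protein share as a covariate. It was 2 without replicates 2 and 8, and 0 to 1 when each replicate was left out. The share of all detected genes was 4.83% in the report. In these settings in turn it was 24.0%, 4.17%, 3.01% and 3.32% to 4.22%. The count moving with the ribosomal protein share, 5 in the report, was 2 in CQN values and 2 without replicates 2 and 8. It was 3 to 5 when each replicate was left out, with the 3 reached without replicate 8. Of all detected genes 71.8% moved in the report, 40.2% in CQN values and 54.2% without replicates 2 and 8. When each replicate was left out 59.8% to 75.1% did, with the 59.8% reached without replicate 8. Of the pair ratios, ICAM1 over ICAM2 was 0.95 by CPM with no length, -0.20 with the longest transcripts and 0.51 in CQN values. ALCAM over MCAM was -0.0909 by CPM and -0.0414 with the longest transcripts, and CD99 over PECAM1 was -0.22 by CPM. RPKM and CQN gave 4 of 8 members the same rank.

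Slopes on the share changed sign as follows. In CQN values they were -0.0709 for ICAM1, -0.0687 for ICAM2, 0.0589 for VCAM1, 0.28 for SELE and -0.15 for MCAM. Without replicates 2 and 8 they were -0.13 for ICAM1, -0.15 for ICAM2, 0.0162 for SELE, -0.0736 for MCAM, -0.0188 for PECAM1 and -0.0174 for ESAM on counts, and -0.25 for ICAM1, -0.45 for ICAM2, 0.35 for SELE, -0.20 for MCAM, -4.31e-04 for PECAM1, -0.17 for CD99 and -0.28 for ESAM in CQN values. The MCAM slope was -0.00397 by the Wald test of DESeq2 and -0.00398 in edgeR with DESeq2 size factors. With each replicate left out, SELE ran from -0.232 to 0.0821 and MCAM from -0.0165 to 0.00907. The cause was not tested. Leaving out replicates 2 and 8 was chosen after seeing the data. No paired analysis was possible because there is 1 group.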
